A study of Drosophila melanogaster with 15 samples.

Results

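The proteasome subunit genes of Drosophila melanogaster were followed in wing discs, the larval tissue that forms the adult wing, with and without knockdown of avl. Members were all genes whose symbol starts with Prosalpha or Prosbeta, or with Rpn or Rpt and a digit. Of 48 RefSeq genes named this way, 40 had a probe set of their own among the 11982 genes measured. These 40 were 26 canonical subunits (6 of the alpha ring, 6 of the beta ring, 4 Rpt and 10 Rpn) and 14 paralogues whose symbols carry a T or R suffix. Prosalpha1 and Prosalpha1R share 1 probe set and are not reported, and no probe set was named for Prosbeta1, Rpt1, Rpt6, Rpt6R, Rpn9 or Rpn10, which were not analysed here.

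The proteasome degrades proteins that carry ubiquitin chains. Its barrel-shaped core, the 20S particle, has outer alpha rings that gate the entrance and inner beta rings that hold the protease sites. The regulatory cap, the 19S particle, binds and unfolds substrates: Rpt subunits form a ring of ATPases, and Rpn subunits provide scaffolds, ubiquitin receptors and a deubiquitinase. In animals many subunit genes are transcribed under common regulators, among them the Nrf-type factor encoded by cnc in flies. Several Drosophila core subunits also have copies expressed in the testis.

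Each of the 5 groups had 3 arrays, from larvae raised at 25 °C after egg collections of 2 h and dissected in the third instar. Control discs were w-; elav-GAL80/+; Rn-GAL4/+, are labelled wild type in morphology, and were taken at 92 and 116 h after egg deposition. Knockdown discs were w- with the same elav-GAL80/+, and had Rn-GAL4,UAS Avl RNAi/+; they are labelled neoplastic and were taken at 92, 116 and 168 h, with no control at 168 h. Both genotypes therefore carried the driver and elav-GAL80, a neuronal block on GAL4, in a w1118 background. The rn driver acts in only some of the disc's cells while whole discs were assayed, and avl, which encodes an early endosomal syntaxin, had no named probe set, so the extent of knockdown was not analysed here. The design names 3 separate samples for each time point but not how many animals each held, so p-values measure the spread between these samples. In whole discs, fewer cells of a type and less RNA per cell cannot be told apart.

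Array medians were close, at 4.74 to 4.79 on the log2 scale over all probe sets. The mean over 7 wing disc genes lay between 8.83 and 9.36 in the 15 arrays. Genes of other tissues varied more: 13 muscle genes averaged 5.43 to 8.50 and 14 gut genes 4.61 to 6.94. Control 92 h replicate 3 had a gut mean of 4.97 beside 6.75 and 6.81 in its group, and control 116 h replicate 2 had 6.62 beside 4.90 and 4.84. Results below were therefore also computed with these marker means as covariates.

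All 26 canonical genes were bright in every group, with means over the 15 arrays from 10.58 for Rpn8 to 12.38 for Prosbeta3, whereas the paralogues lay between 3.83 for Prosbeta4R2 and 6.42 for Rpt3R. Signals of different probe sets are not amounts that can be compared, so each gene was set against itself. The canonical genes took nearly the same order of groups. Control discs at 92 h had the highest mean for 23 of 26 genes, knockdown discs at 168 h the fourth highest for 26 of 26, and knockdown discs at 116 h the lowest for 26 of 26. Relative to control discs at 92 h, the canonical mean was -0.20 ± 0.012 (SD, n = 3) in control discs at 116 h and -0.09 ± 0.012 in knockdown discs at 92 h. It was -0.52 ± 0.066 in knockdown discs at 116 h and -0.41 ± 0.017 at 168 h, in log2 units. The plot of canonical genes by group shows this course gene by gene.

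**Figure D1:**
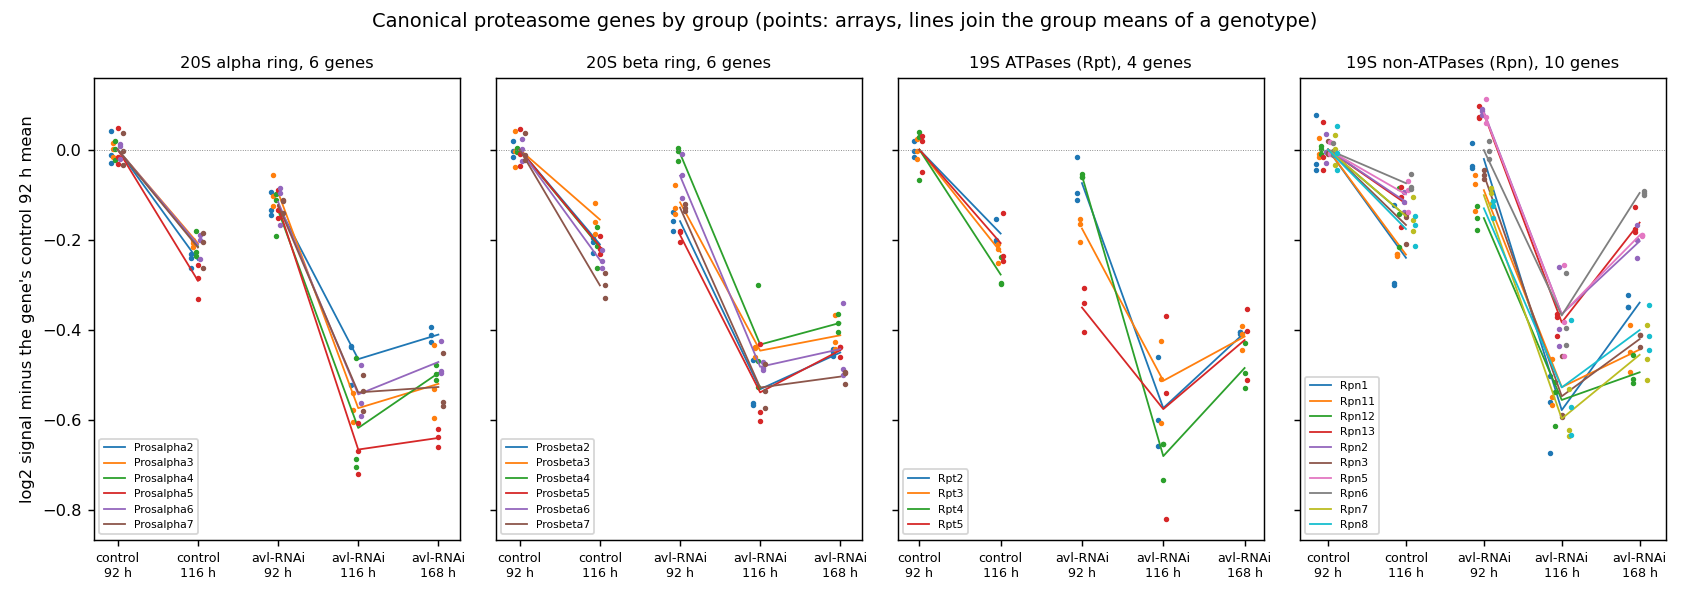
Log2 signal of each canonical gene minus its own mean in control discs at 92 h (vertical axis) in the 5 groups, with 1 panel for each of the alpha ring, beta ring, Rpt and Rpn genes. Points are arrays, and lines join the group means of a genotype. Knockdown discs at 116 h had the lowest group mean for 26 of 26 genes.

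The first question was whether the subunit genes differed between knockdown and control discs of the same age. At 116 h they did, in one direction: all 26 canonical genes were lower in knockdown discs, with no overlap between the 3 knockdown and 3 control arrays of any gene. The reduction ran from 13.9% for Prosbeta4 to 26.8% for Rpn7. Calls are adjusted p under 0.05 from limma with Benjamini-Hochberg adjustment over all 11982 genes. At that threshold 31.7% of all genes were called at 116 h and 19.1% were called lower, and among the 665 bright genes, those with a mean signal at or above that of Rpn8, 38.9% were called lower. The median log2 difference was -0.32 over the canonical genes, -0.02 over all genes and -0.09 over the bright genes. Of all genes, 23.8% had non-overlapping arrays with the knockdown lower, and of the 665 bright genes 45.3% did.

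In the beta ring, Prosbeta2 carries the trypsin-like protease site. Its log2 signals at 116 h were 11.79, 11.76 and 11.79 in control discs and 11.43, 11.52 and 11.42 in knockdown discs. At 92 h they were 11.99, 12.01 and 11.97 in control discs and 11.81, 11.83 and 11.85 in knockdown discs. The knockdown arrays lay below the control arrays of their age at both times, and at 168 h, with 11.53, 11.55 and 11.54, they stayed below the controls of 116 h. The difference at 116 h was -0.32 ± 0.039 (SE; adjusted p = 2.8e-05, limma), the smallest adjusted p of this ring.

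Prosbeta5 carries the chymotrypsin-like site, the main target of proteasome inhibitor drugs. Control discs gave 11.91, 11.88 and 11.96 at 92 h and 11.70, 11.69 and 11.73 at 116 h. Knockdown discs gave 11.73, 11.74 and 11.71 at 92 h, then 11.34, 11.48 and 11.31 at 116 h and 11.46, 11.48 and 11.48 at 168 h. Here too the genotypes did not overlap at either shared age. The difference at 116 h was -0.32 ± 0.048 (adjusted p = 0.00014, limma). The caspase-like subunit Prosbeta1 was not analysed here. The other beta genes differed by -0.29 (Prosbeta3) to -0.22 (Prosbeta4), and all 6 beta genes were called lower.

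In the alpha ring 6 of 6 genes were called lower at 116 h, with a median of -0.35. Prosalpha5 had the smallest adjusted p of the ring, with control signals of 11.70, 11.75 and 11.78 and knockdown signals of 11.31, 11.43 and 11.37 at 116 h. That is a difference of -0.37 ± 0.044 (adjusted p = 1.9e-05, limma). Prosalpha4 had the largest alpha difference, -0.40 ± 0.058, and Prosalpha2 the smallest, -0.22 ± 0.040.

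Among the 4 ATPases all were called lower at 116 h, with a median of -0.38. Rpt4 gave 10.76, 10.76 and 10.82 in control discs and 10.32, 10.40 and 10.40 in knockdown discs, a difference of -0.40 ± 0.045 (adjusted p = 1.3e-05, limma). Rpt5, whose tail helps open the core's gate, had the widest spread of the canonical genes in knockdown discs at 116 h. Its knockdown signals of 11.17, 11.34 and 10.89 were still below the control signals of 11.46, 11.47 and 11.56, and the difference was -0.37 ± 0.088 (adjusted p = 0.0055).

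The 10 Rpn genes were also all called lower, with a median of -0.32. Rpn7, a lid subunit, showed the largest difference of the 26 genes. Its signals were 10.87, 10.89 and 10.95 in control discs and 10.43, 10.52 and 10.41 in knockdown discs, so that the difference was -0.45 ± 0.046 (adjusted p = 5.6e-06, limma). Among the Rpn genes, the lid genes Rpn12 and Rpn3 followed with -0.41 and -0.38. Rpn11, the deubiquitinase that removes chains from substrates, differed by -0.29 ± 0.044, and the ubiquitin receptor Rpn13 by -0.26 ± 0.043.

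Markers of muscle also differed between the genotypes at 116 h, most of them with the opposite sign, and the cause was not tested. The muscle mean was 6.28, 6.71 and 6.10 in control and 7.45, 6.95 and 7.18 in knockdown arrays at 116 h, and 8 of 13 muscle genes were called higher in knockdown discs, while 4 of 7 wing disc genes and 2 of 7 salivary gland genes were called lower. Of 8 haemocyte genes 2 were called higher and 1 lower. Of the 3 fat body genes 1 was called lower, Fbp1 with -2.36, although the list median was 0.84. Over all genes 12.6% were called higher and 19.1% lower. With the muscle, gut and fat body means as covariates, 4 of the 26 genes (Rpn3, Rpn7, Rpn12 and Rpt2) were called lower, and with the muscle mean alone, chosen after the values were seen, 13 were. Calls in either direction over all genes fell too, from 3794 without covariates to 1124 with all 3 and 1446 with muscle alone. All 26 differences were negative in both covariate fits, with medians of -0.27 and, with muscle alone, -0.26. The median standard error rose from 0.046 to 0.091 with all 3 covariates. Leaving out the control arrays with unusual gut values, together, left 26 called lower.

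**Figure D2:**
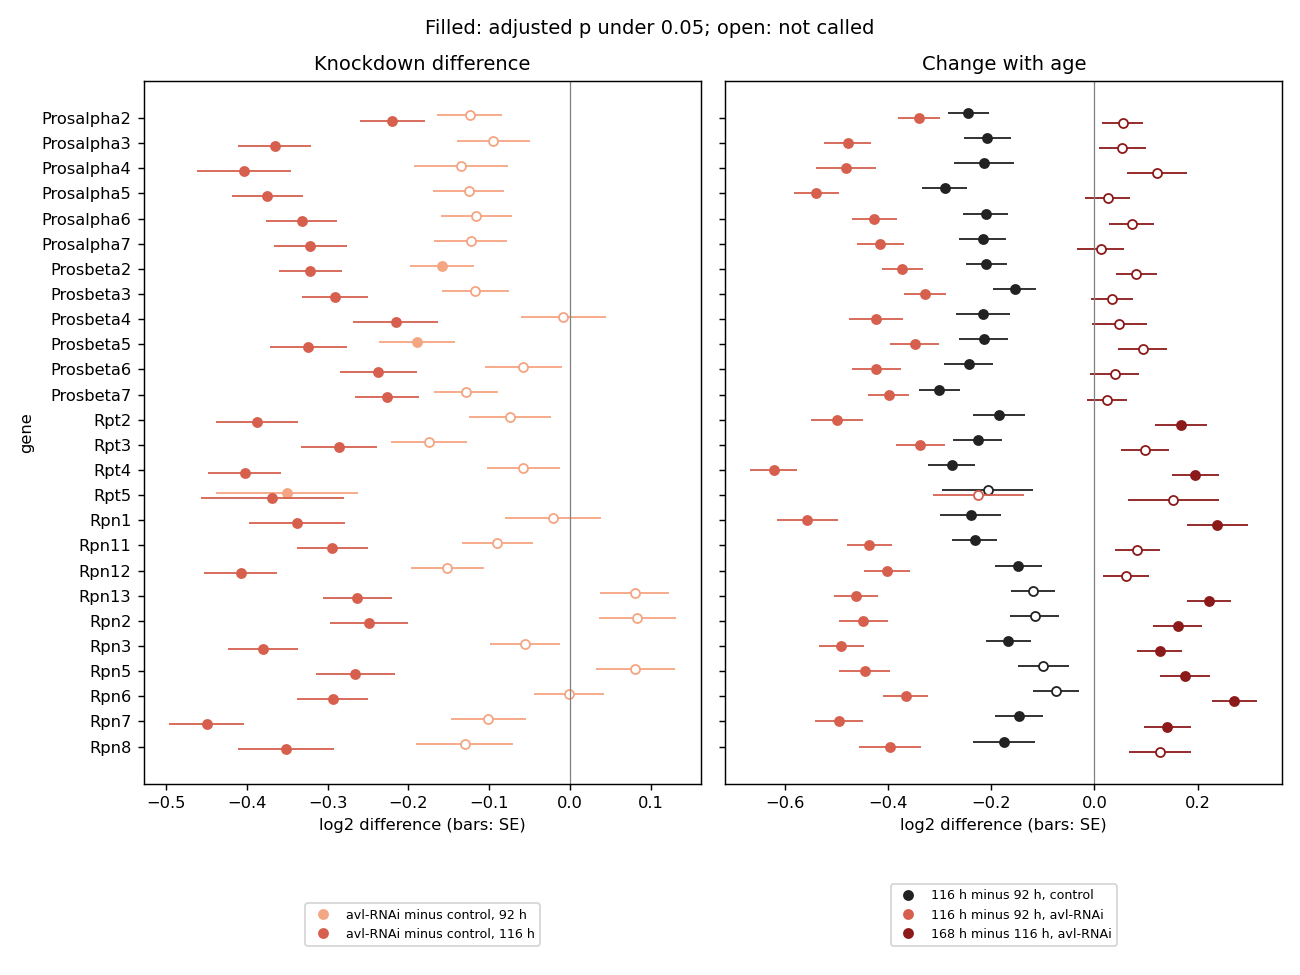
Log2 differences of each canonical gene (vertical axis) with bars of 1 SE; filled points have adjusted p under 0.05. The left panel shows knockdown minus control at 92 and 116 h and the right panel the changes with age, with 26 of 26 genes called lower in knockdown discs at 116 h and 9 called higher at 168 h than at 116 h.

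At 92 h the differences were smaller and few passed the test. Of 26 canonical genes, 3 were called lower and none higher, where 4.48% of all genes were called, 2.04% of all genes were called lower, and 1.65% of the 665 bright genes were. The 3 were Prosbeta2 (-0.16 ± 0.039, adjusted p = 0.038), Prosbeta5 (-0.19 ± 0.048, adjusted p = 0.040) and Rpt5 (-0.35 ± 0.088, adjusted p = 0.041), all by limma. Rpt5 gave 11.72, 11.65 and 11.74 in control and 11.30, 11.37 and 11.40 in knockdown discs, without overlap. Unadjusted p was under 0.05 for 14 of the 26 genes, beside 2026 of all 11982 genes and 98 of the 665 bright genes. Negative differences were found for 23 of 26, beside 6404 of all genes and 379 of the bright genes. The median was -0.11, beside -0.01 over all genes and -0.01 over the bright genes. The 3 calls depended on the fit: 0 of 26 were called after median centring of the arrays, with the marker means as covariates, or without control 92 h replicate 3 and control 116 h replicate 2. Over all genes 520, 121 and 257 were called in these fits, in that order, and 537 in the main fit. Leaving out any single array other than the 3 of knockdown discs at 116 h left 0 or 1 of the 26 called. At 92 h the muscle mean was again higher in knockdown discs, at 8.06 to 8.50 against 7.44 to 7.80. At that age 1 of 13 muscle genes was called higher, beside 2.44% of all genes.

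The positive differences at 92 h were all in the cap. Rpn2 and Rpn5 had 0.08 ± 0.048 and 0.08 ± 0.049, and Rpn13 had 0.08 ± 0.043. None of the 3 passed the test (adjusted p from 0.38 to 0.45). All 12 core genes had negative values, from -0.19 for Prosbeta5 to -0.01 for Prosbeta4.

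The difference between knockdown and control was itself larger at 116 h than at 92 h. The change of the difference was negative for 26 of 26 canonical genes, with a median of -0.24, and 16 passed the interaction test, where 18.2% of all genes passed, 10.5% with a negative sign, against 22.4% with that sign among the 665 bright genes. The 16 were 5 of 6 alpha genes, 0 of 6 beta genes, 2 of 4 Rpt genes (Rpt2 and Rpt4) and 9 of 10 Rpn genes. Rpn7 changed by -0.35 ± 0.065 (adjusted p = 0.0022, limma), Rpn5 by -0.35 ± 0.069 (adjusted p = 0.0032) and Rpt4 by -0.34 ± 0.064 (adjusted p = 0.0021). The beta values ran from -0.21 for Prosbeta4 to -0.10 for Prosbeta7, and Rpt5, already lower at 92 h, gave -0.02 ± 0.125. Whether the cap and core counts differ was not tested. With the marker covariates 9 passed, and 9 without both control arrays of unusual gut values. Over all genes 1617 passed with the marker covariates and 2175 in the main fit.

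The second question was how the genes changed as the discs aged. Control discs showed lower proteasome signals at 116 h than at 92 h. All 26 canonical genes had negative differences and non-overlapping arrays, and 21 were called lower, where 27.0% of all genes were called, 13.8% called lower, and 31.0% of the bright genes called lower. Non-overlapping arrays with 116 h lower were found for 22.7% of all genes and 43.5% of the bright genes. The median was -0.21 beside -0.01 for all genes and -0.05 for the bright genes. Prosbeta7 had the largest fall, -0.30 ± 0.040 (adjusted p = 7.4e-05, limma), with 12.27, 12.21 and 12.22 at 92 h and 11.90, 11.93 and 11.96 at 116 h. All 12 core genes were called. The 5 genes not called were Rpt5 and the cap genes Rpn2, Rpn5, Rpn6 and Rpn13, with values from -0.21 to -0.07.

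Markers of other tissues also moved over this interval. Of the muscle genes 11 of 13 were called lower, and of the salivary gland genes 6 of 7 were called higher with a median of 1.71. Over all genes 13.8% were called lower and 13.2% higher. Of the 3 fat body genes Fbp1 was called higher by 4.70, while the other 2 had negative differences and the list median was -0.29. The salivary gland mean went from between 4.64 and 4.84 to between 6.28 and 6.69. It was not among the covariates, and its part in the change was not tested. With the muscle, gut and fat body means as covariates no canonical gene was called and with the muscle mean alone 2 were, while all 26 differences were negative with a median of -0.28 in both fits. The median standard error was 0.117 and 0.109 in these fits and 0.046 without covariates.

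In knockdown discs the fall over the same interval was larger. Of 26 genes, 25 were called lower at 116 h than at 92 h, where 35.4% of all genes were called, 20.6% called lower, and 47.1% of the bright genes called lower. The median was -0.43. Rpt4 fell most, from 11.00 in each array at 92 h to 10.32, 10.40 and 10.40 at 116 h, by 0.62 ± 0.045 on the log2 scale (adjusted p = 3.5e-07, limma). Prosalpha5 went from 11.90, 11.88 and 11.95 to 11.31, 11.43 and 11.37, a difference of -0.54 ± 0.044. Rpt5 was the gene not called (-0.23 ± 0.088, adjusted p = 0.065). In these discs 9 of 13 muscle genes were called lower and 5 of 7 salivary gland genes higher, beside 14.8% of all genes called higher. With all 3 marker means as covariates 24 canonical genes were called lower with a median of -0.49. The control and knockdown changes with age share no arrays, and their difference is the interaction given above.

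Between 116 and 168 h, all 26 canonical genes had positive differences in knockdown discs, of which 9 passed the test. Called higher were 9 of the 14 cap genes and 0 of the 12 core genes, where 27.0% of all genes were called, 15.5% called higher, and 23.9% of the bright genes called higher. Medians were 0.16 for the cap and 0.05 for the core, and whether cap and core differ was not tested. Rpn6, a lid subunit that braces cap and core together, changed most. It gave 10.91, 11.07 and 10.95 at 116 h and 11.24, 11.25 and 11.25 at 168 h, a rise of 0.27 ± 0.044 (adjusted p = 0.00044, limma). The scaffold Rpn1 rose by 0.24 ± 0.059, Rpn13 by 0.22 ± 0.043 and Rpt4 by 0.20 ± 0.045, and the other genes called were Rpn2, Rpn3, Rpn5, Rpn7 and Rpt2. In the core Prosbeta2 had 0.08 ± 0.039 (adjusted p = 0.15) and Prosalpha5 0.03 ± 0.044 (adjusted p = 0.73). At 116 h knockdown replicate 2 was the highest of its group in the canonical mean, at 11.16 beside 11.05 and 11.04, and it also had the highest fat body mean, 11.29 beside 9.54 and 9.33. Without it 14 canonical genes were called, whereas 4 were without replicate 1 of that group, 5 without replicate 3 and 5 without knockdown 168 h replicate 1.

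These calls were lost when muscle signal entered the fit. Muscle means dropped from between 6.95 and 7.45 at 116 h to between 5.43 and 5.70 at 168 h, with 10 of 13 muscle genes called lower. Of 7 wing disc genes 3 were called higher and 1, vg, lower. Of the other lists, 2 of 7 salivary gland and 2 of 3 fat body genes were called lower. The other fat body gene, Fbp1, had a positive difference of 1.90 and was not called. Of 8 haemocyte genes 3 were called higher and 2 lower. Over all genes 11.5% were called lower and 15.5% higher. With the muscle mean as a covariate, alone or with gut and fat body, no canonical gene was called higher. The median difference became 0.00 in both fits, with standard errors of 0.133 and 0.156.

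Knockdown discs of 168 h were still below control discs of 116 h, the oldest controls, which differ from them in age as well as genotype. Of the 26 genes 20 were called lower, where 25.6% of all genes were called, 13.7% called lower, and 25.4% of the bright genes called lower. The median was -0.22. All 12 core genes were called, and 8 of 14 cap genes. Prosalpha5, at 11.41, 11.37 and 11.40, was -0.35 ± 0.044 from the control (adjusted p = 5.5e-05, limma), and Rpn12, at 11.00, 11.00 and 11.06 against 11.30, 11.43 and 11.37, was -0.35 ± 0.045 (adjusted p = 7.2e-05). The cap genes not called were Rpn1, Rpn2, Rpn5, Rpn6, Rpn13 and Rpt5. Rpn6 differed by -0.02 ± 0.044, its 168 h arrays at 11.24, 11.25 and 11.25 lying just below the control values of 11.29, 11.26 and 11.26. Of 13 muscle genes 7 were called lower and 2 higher, and 5 of 7 salivary gland genes were called lower with a median of -1.07. Of 8 haemocyte genes eater and srp were called higher by 1.23 and 1.16. Of 7 wing disc genes 3 were called higher and 2 lower. Of all 11982 genes 1432 were called higher and 1638 lower. The part of the salivary gland and haemocyte lists was not tested, and with all 3 marker covariates 5 canonical genes were called lower.

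The balance of cap and core was read directly from each array, as the mean of 14 cap genes minus the mean of 12 core genes, each gene relative to its own control 92 h mean. It was 0.143, 0.133 and 0.093 in knockdown discs at 168 h. In the other 12 arrays it lay between -0.007 and 0.059, so the 168 h arrays stood above every other array. Knockdown discs at 116 h had 0.006, 0.045 and 0.006, with group means of -0.51 for the cap and -0.53 for the core. The control arrays of 92 h, to which the score is relative, lay between -0.007 and 0.006, and knockdown replicate 2 was above them. No test was made of this score, whose genes were also used in the fits above.

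**Figure D3:**
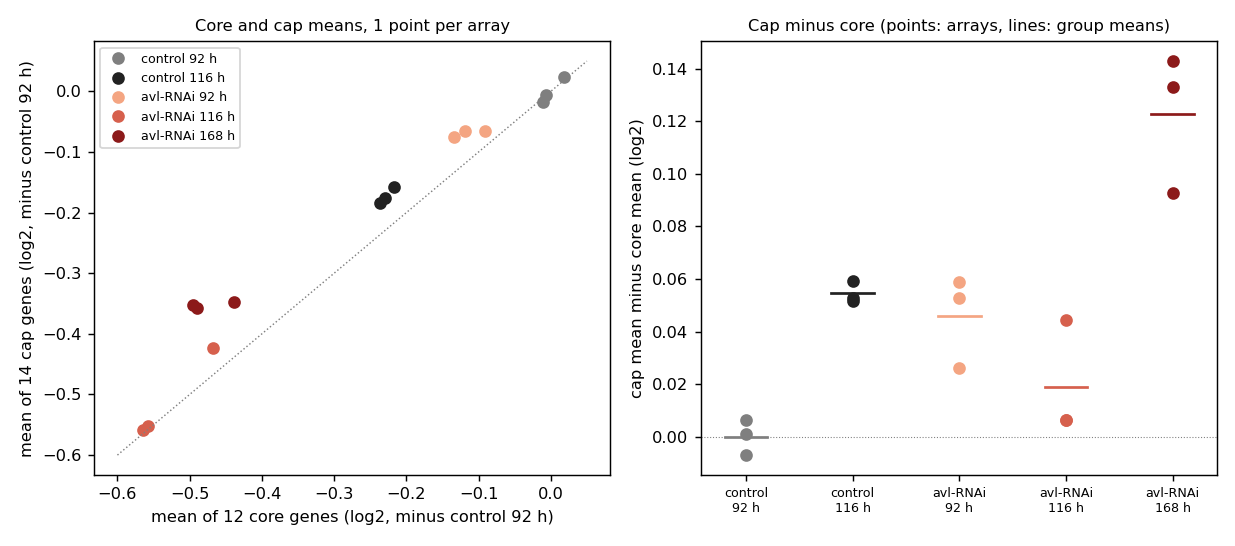
Left, the mean of 14 cap genes against the mean of 12 core genes, each gene relative to its control 92 h mean (log2), with 1 point per array and a dotted line of equality. Right, cap minus core for each array, with lines at the group means; the 3 knockdown arrays of 168 h lie between 0.093 and 0.143, above the other 12.

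The subunit genes varied together across arrays. Over the 15 arrays the 325 pairs of canonical genes had a median Pearson correlation of 0.948, from 0.597 to 0.991. This describes the group means above, which the genes share, as well as the RNA sample and array of each point. After the group means were removed the median was 0.455. Against the mean of the other canonical genes, Rpn3 was the closest (r = 0.994) and Rpt5 the farthest (r = 0.805). Among the 8 genes of the COP9 signalosome, a complex related to the cap lid, the median over pairs was 0.794, and among the 14 paralogues 0.017.

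Genes that act beside the proteasome were called in both directions at 116 h, where 19.1% of all genes were called lower and 12.6% called higher. The COP9 signalosome, which removes the Nedd8 tag from cullin ubiquitin ligases, had 7 of 8 genes called lower and none higher, with a median of -0.25. All 8 lay below Rpn8 in mean signal, so the 38.9% called lower among the bright genes is not a share matched to them. CSN1b differed by -0.39 ± 0.056 (adjusted p = 9.5e-05, limma), CSN7 by -0.28 ± 0.051, CSN6 by -0.29 ± 0.057 and CSN5, its catalytic subunit, by -0.22 ± 0.041. In control discs none of the 8 changed between 92 and 116 h by the limma test (unadjusted p under 0.05 for 2), although the difference in behaviour from the subunit genes was not tested.

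Of 13 genes for assembly, activation and regulation of the proteasome, 5 were called lower and 3 higher, with a median of -0.11. Over all genes the shares were 19.1% lower and 12.6% higher. Both deubiquitinases that dock on the cap were lower, Uch-L5 by -0.51 ± 0.069 (adjusted p = 7.1e-05, limma) and Usp14 by -0.28 ± 0.042 (adjusted p = 0.00015). The others called lower were sip3 (-0.24), Keap1 (-0.26) and maf-S (-0.20), the last encoding a partner of cnc and Keap1 its inhibitor. The 3 higher genes were ntc, an F-box protein that binds the regulator PI31 (0.57 ± 0.077, adjusted p = 6.6e-05), cnc (0.22 ± 0.060, adjusted p = 0.012) and the activator cap REG (0.21 ± 0.060, adjusted p = 0.016). Signals of cnc were 7.85, 7.96 and 8.04 in control and 8.17, 8.21 and 8.13 in knockdown discs, without overlap. Apart from ntc, Uch-L5, Usp14 and sip3, these genes are named because few were called, after their values were seen.

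Of 18 genes for ubiquitin supply, conjugation and substrate extraction, 9 were called lower and 2 higher, with a median of -0.15. Of all genes 19.1% were called lower. The 2 of 18 is no larger a share than the 12.6% of all genes called higher. The E2 enzyme vih, which serves the mitotic ubiquitin ligase APC/C, was lower by -0.46 ± 0.053 (adjusted p = 1.7e-05, limma). The extraction ATPase TER94 differed by -0.28 ± 0.060 (adjusted p = 0.0025), and its cofactors Ufd1, Plap and p47 by -0.28, -0.26 and -0.27. Npl4, the cofactor that pairs with Ufd1, was not called, with -0.04 ± 0.042 (adjusted p = 0.56) and overlapping arrays. Of the 2 higher genes, also named after their values were seen, the polyubiquitin gene Ubi-p63E was higher by 0.20 ± 0.049 and the E2 gene Ubc6 by 0.20 ± 0.060.

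**Figure D4:**
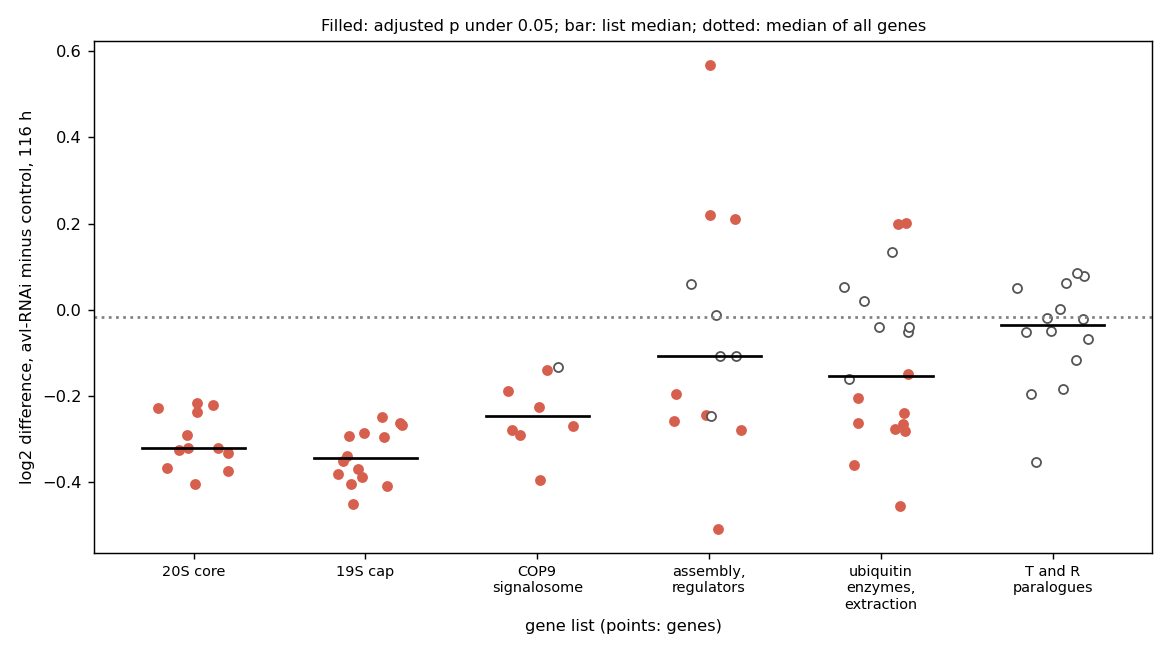
Log2 difference between knockdown and control discs at 116 h (vertical axis) for each gene of 6 lists, with filled points for adjusted p under 0.05, bars at list medians and a dotted line at the median of all genes, -0.02. All 12 core and 14 cap genes lie between -0.45 and -0.22, whereas the regulator and ubiquitin lists hold calls on both sides.

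At 168 h against 116 h in knockdown discs, 15.5% of all genes were called higher and 11.5% lower. The regulators had 5 of 13 higher and 0 lower, the ubiquitin genes 5 of 18 higher and 0 lower, and the COP9 genes 1 of 8 higher, a share below that of all genes, CSN1b with 0.20 ± 0.056 (adjusted p = 0.017, limma). The E2 gene vih went from 9.89, 10.01 and 9.84 to 10.32, 10.40 and 10.41, a rise of 0.47 ± 0.053 (adjusted p = 2.6e-05), which overlaps the 10.41, 10.33 and 10.36 of control discs at 116 h. Ubi-p63E was 0.41 ± 0.049 above control discs of 116 h at 168 h.

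The 14 paralogues with a T or R suffix lay near the array medians or below, except Rpt3R. At 116 h none was called by limma (unadjusted p under 0.05 for 1), and the median difference was -0.03. Probes this dim were not shown to be above background, so a difference of the size seen in the canonical genes may not be detectable in them. Between 116 and 168 h in knockdown discs 2 of the 14 paralogues were called higher, Rpt3R and Rpn13R. That is no larger a share than the 15.5% of all genes called higher. Rpt3R, a paralogue of the ATPase Rpt3, gave 6.20, 6.03 and 5.87 in knockdown discs at 116 h and 6.83, 6.69 and 6.89 at 168 h. The rise was 0.77 ± 0.092 (adjusted p = 4.3e-05, limma), and the 168 h arrays also exceeded the control values of 6.10, 6.33 and 6.26 at 116 h by 0.57 ± 0.092. In control discs Rpt3R had been 6.80, 6.65 and 6.66 at 92 h, a fall of 0.47 by 116 h (adjusted p = 0.0015). It was lower in knockdown discs at 92 h, with 6.44, 6.29 and 6.21 (-0.39 ± 0.092, adjusted p = 0.029).

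Rpn13R, a paralogue of the ubiquitin receptor Rpn13, gave 4.68, 4.41 and 4.98 in knockdown discs of 116 h, and those of 168 h gave 5.45, 5.50 and 5.42. The rise was 0.77 ± 0.136 (adjusted p = 0.00088, limma), and the 168 h arrays were above those of every other group. Canonical Rpt3 and Rpn13 had 0.10 ± 0.047 and 0.22 ± 0.043 in the same comparison. Of the remaining paralogues, Prosalpha6T fell by 0.22 with age in control discs (adjusted p = 0.025) and Rpn12R rose by 0.23 in knockdown discs (adjusted p = 0.023), at signals near 4. Of 15 testis genes, 2 were called higher at 168 h than at 116 h, Mst87F by 1.28 and fzo by 0.33. The 2 of 15 is no larger a share than the 15.5% of all genes called higher. List means were 3.98 to 4.05 at 116 h and 4.11 to 4.27 at 168 h. The part of testis RNA in these values was not tested. Probe sets for Rpt3R, Rpn12R and, among canonical genes, Prosalpha5, Prosalpha7, Prosbeta5, Prosbeta7, Rpn6 and Rpn13 are of types that can also detect related transcripts.

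**Figure D5:**
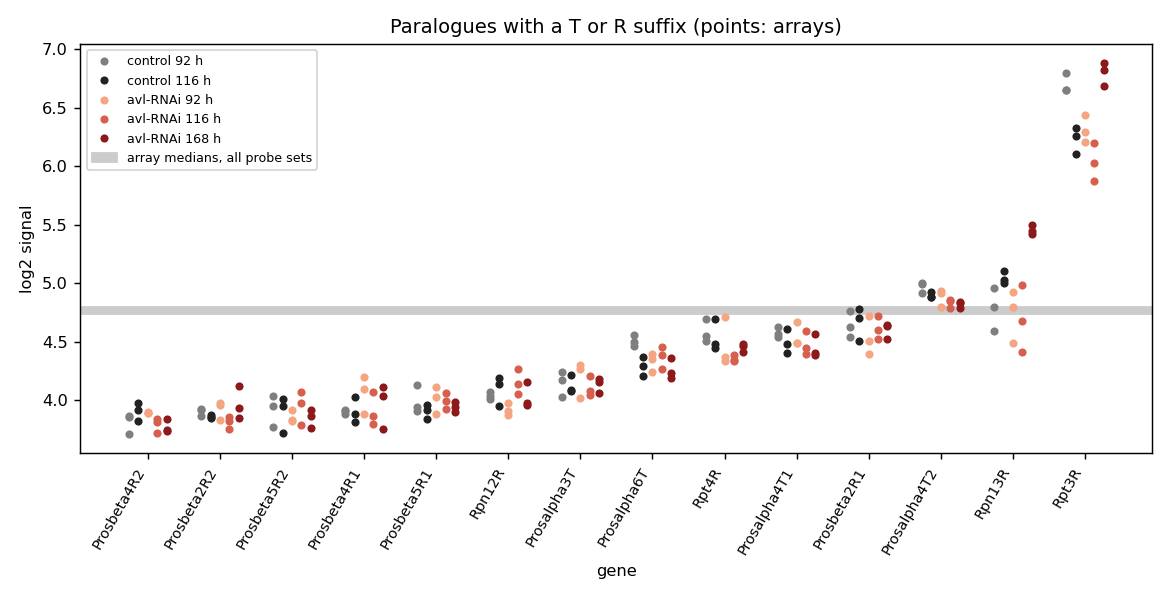
Log2 signal (vertical axis) of the 14 paralogues in each array, coloured by group, with a grey band at the array medians over all probe sets, 4.74 to 4.79. Rpt3R and Rpn13R are highest, among knockdown discs, at 168 h.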

How the data were processed

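Total RNA of 15 wing disc samples was labelled from 200 ng and hybridised to Affymetrix arrays, per the labels' protocols. The values are log2 signals per probe set deposited by the authors. The log base was inferred from their range, and the normalization is not given in the sources used here. Partek and limma are named in the submitters' processing notes, without a role. Of 18952 probe sets, 13647 carried 1 gene symbol, 402 several and 4903 none. Symbols were updated through gene IDs, and for each gene the probe set with the highest mean over all arrays was kept. That choice left 11982 genes, and no member had several probe sets.

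A model with 5 group means was fitted with limma 3.58.1 in R 4.3.3 to all genes (10 residual degrees of freedom). Benjamini-Hochberg adjustment covered all genes, with a threshold of 0.05 and moderated standard errors. The fit was checked on simulated data. Members and lists were chosen with earlier results of these data known. Named in full are the catalytic subunits, members called at 92 h and, per subcomplex, the smallest adjusted p at 116 h. Up to 4 genes per other list were named by adjusted p.

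Same-numbered replicates did not all deviate together: of 30 correlations between -0.41 and 0.50, 9 exceeded 0.1, and no group pair had all above 0.1. Some did: the value was 0.50 for replicate 1 of the 92 h groups and 0.50 for replicate 3 of the control groups. Replicate 1 of the control groups gave -0.41, and a replicate effect shared by only some groups was not tested. Alternatives changed the arrays fitted, prior, normalization, filter, probe set rule, weights, covariates and threshold. Gut, muscle or fat body means as sole covariates were added after the values were seen. Marker lists for haemocytes (mean 6.19 to 7.73) and salivary gland (4.48 to 6.69) were not used as covariates. No sequence or coordinates were used.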

Additional observations from a re-analysis of the deposited data

Results flagged for a closer look

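For 16 of 26 canonical genes the difference between knockdown and control discs changed from 92 to 116 h by limma's interaction test, each time to a more negative value (log2 units, difference at 116 h minus difference at 92 h). Of all genes 18.2% passed this test, 10.5% with a negative sign, and 22.4% of the 665 bright genes passed with that sign. With the marker covariates 9 of the 26 passed. In the alpha ring the change was -0.271 for Prosalpha3, -0.269 for Prosalpha4, -0.249 for Prosalpha5, -0.216 for Prosalpha6 and -0.199 for Prosalpha7. Among the ATPases it was -0.313 for Rpt2 and -0.345 for Rpt4. Among the Rpn genes it was -0.317 for Rpn1, -0.332 for Rpn2, -0.325 for Rpn3, -0.347 for Rpn5, -0.292 for Rpn6, -0.349 for Rpn7, -0.204 for Rpn11, -0.256 for Rpn12 and -0.343 for Rpn13. Groups of 3 arrays are too small for a test of single outlying arrays.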

How the results depend on the processing

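Over 280 member results and 30 settings, 7765 of 8260 alternative values kept direction and call, 416 lost the call, 72 gained it and 7 reversed. The count of canonical genes lower at 116 h was 26 without any one array, and 4 with the muscle, gut and fat body covariates or 13 with muscle alone. Calls over all genes at 116 h were 3794 in the main fit, 1124 with the 3 covariates and 1446 with muscle alone. At 92 h, where the count was 3, it was 1 with only the compared groups, 6 with a trended and robust prior, 7 without the lowest 50% of genes, and 0 with median centring, at adjusted p under 0.01, with the 3 covariates, with gut or muscle alone, or without both arrays of unusual gut values. It was 0 to 4 without single arrays.

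The interaction count of 16 became 9 with the 3 covariates, without both unusual arrays, or at adjusted p under 0.01, and 12 to 20 without single arrays. The control age count of 21 became 0 with the 3 covariates and 2 with muscle alone (17 to 23 without single arrays). The count of 25 in knockdown discs was 25 to 26. The 168 h rise of 9 became 3 with only the compared groups, 0 with the 3 covariates or muscle alone, and 4 at adjusted p under 0.01. It was 4 to 14 without single arrays (4, 14 and 5 without knockdown 116 h replicates 1, 2 and 3, and 5 without knockdown 168 h replicate 1). The count of 20 against controls of 116 h became 5 with the 3 covariates (18 to 21 without single arrays). The cause of these shifts was not tested.

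In the 168 h rise, 1 of the 26 differences was negative with quantile normalization or array weights, 2 without knockdown 116 h replicate 1 or 168 h replicate 3, and 13 with the 3 covariates or muscle alone. Reversals of calls were all in that comparison. With the 3 covariates Rpn1 gave -0.185, Rpn3 -0.0072, Rpn7 -0.066 and Rpt4 -0.026, and with muscle alone Rpn1 gave -0.084, Rpn3 -0.047 and Rpn7 -0.022. Replicate number as a block is a pairing the deviations bear out only in part. With it the counts were 0 at 92 h, 26 at 116 h, 13 for the interaction, and 20 and 25 for the changes with age. They were 7 for the 168 h rise and 19 against controls of 116 h. With 3 arrays a group, differences under about 0.1 were rarely called.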
